A study of Mus musculus with 2 samples.

Results

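Dendritic cells with high MHC class II were taken from the mononuclear cells of injured mouse quadriceps as the kept cells with at least 20 UMIs (unique molecular identifiers, each standing for 1 captured transcript) summed over H2-Aa, H2-Ab1, H2-Eb1 and Cd74. They also needed at least 1 UMI over Flt3, Cd209a, Zbtb46, Xcr1, Clec9a and Ccr7, at most 2 UMIs over C1qa, C1qb and C1qc, and no UMI of Cd79a, Ms4a1, Pdgfra or Cdh5. The rule found 242 dendritic cells among 13047 kept cells: 148 of 4900 at 2 h and 94 of 8147 at 9 h. The mice were wild-type C57BL/6J, and every animal had received 100 µl of 1.2% (w/v) barium chloride, a salt that kills muscle fibres, into the quadriceps. The muscles were taken 2 h or 9 h later, the cells were cryo-preserved and thawed, and 1 library per time was made with the 10x Genomics droplet 3′ chemistry at a target of 5000 cells. Uninjured muscle was not analysed here, the animals' age was not given in the sources used here, and neither was the number of animals behind each library. Because each time has a single library, conditions could not be tested over samples. All intervals below are at 95% and cover counting error only, so differences between animals or libraries are in none of them.

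Dendritic cells take up antigen in tissues and display its peptides on MHC class II molecules to T cells. Type 1 conventional dendritic cells (cDC1) carry Xcr1 and Clec9a and present material from dead cells on MHC class I. Type 2 cells (cDC2) in mouse tissues often carry Cd209a, a C-type lectin, and present mainly to helper T cells. On maturation either type turns on Ccr7, the receptor that guides it along lymphatic vessels to the draining lymph node, together with chemokines that attract T cells and genes of the NF-kB pathway, a transcription factor family with its own feedback inhibitors.

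The values of the genes that chose the cells are given as a description. At 2 h the lowest, median and highest class II sums per cell were 21, 513 and 1312 UMIs, and at 9 h they were 26, 300 and 1397. Cells just inside the class II limit, with 20 to 29 UMIs, numbered 1 at 2 h and 1 at 9 h, and cells just outside it, with 10 to 19 UMIs and the other conditions met, numbered 2 and 3. The limit on C1q, a complement protein made by macrophages, mattered more: it alone removed 52 cells at 2 h and 42 at 9 h, of which 5 and 4 had just 3 to 5 C1q UMIs. Cells that entered on exactly 1 dendritic marker UMI numbered 23 and 11. A few genes picked from the 10 pan-dendritic genes outside the rule were also far higher in these cells than in the other kept cells. P2ry10, a lysophospholipid receptor, stood at 167 CPM (UMIs per 1000000 UMIs) in dendritic cells and 8.07 CPM in the other kept cells at 2 h, and at 240 and 1.92 CPM at 9 h. Kmo, an enzyme of tryptophan breakdown, stood at 31.8 against 0.918 CPM at 2 h and at 114 against 0.610 CPM at 9 h. Btla, an inhibitory receptor of lymphoid and dendritic cells, stood at 55.4 against 2.29 CPM and at 42.6 against 0.901 CPM. The rest of the 10 are not compared here with the other kept cells, which were of all types. The picked genes thus do not speak for the whole list. Their levels in C1q macrophages and in cells with high class II but no dendritic marker are not given here. At least 1 UMI of the macrophage markers was found in 64.2% of the dendritic cells at 2 h and 38.3% at 9 h.

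The median depth of a dendritic cell was 9131.5 UMIs at 2 h and 7389 at 9 h, while that of all kept cells was 4519 and 2327, and the summed depth was 1444771 and 728110 UMIs. The 8 neutrophil markers summed to 2557 CPM at 2 h and 3251 CPM at 9 h, against 134613 and 100707 CPM in cells that met a neutrophil rule, and 1 dendritic cell held 50.7% of them at 2 h. The 11 T and NK cell markers summed to 20.8 and 4.12 CPM, with Cd3e, Cd3g, Trbc2, Klrb1c and Gzma at 0 in both libraries. Of 6 fibro-adipogenic progenitor markers Pdgfra was 0 by the rule, and 1 cell at 9 h held 84.3% of the rest. The 13 monocyte markers summed to 5433 CPM at 2 h and 2424 CPM at 9 h, and the 11 macrophage markers to 420 and 233 CPM. Among kept cells 12 barcodes occurred in both libraries, and none of them was a dendritic cell.

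The proximal promoters of class II genes show the sequence elements that such genes are known to share, the X box and the Y box, through which the coactivator encoded by Ciita acts. They are shown because the class II genes chose these cells and because the class II list divided between 2 h and 9 h, as described below. The letters searched on both strands were ATTGG for the core of the Y box and, for an X box, CTAG, any base, AAC, any base and GATG in a row. The Y box core was found in 37.4% of 32851 RefSeq promoter windows (GRCm38.p6) and the X box letters in 10 of them (0.0304%). Of the 14 symbols in the class II list 10 were in the promoter table, 8 of these held the Y box core, and H2-Eb1 and H2-DMb1 held the X box letters. Each stretch runs over the 150 bases before the start of transcription, 5′ to 3′ on the gene's strand, with matches in capitals; a match is a description and not a shown site. H2-Eb1 lies at chr17:34305717-34305866 on the plus strand, H2-DMb1 at chr17:34153041-34153190 on the plus strand and H2-Aa at chr17:34287824-34287973 on the minus strand.
H2-Eb1: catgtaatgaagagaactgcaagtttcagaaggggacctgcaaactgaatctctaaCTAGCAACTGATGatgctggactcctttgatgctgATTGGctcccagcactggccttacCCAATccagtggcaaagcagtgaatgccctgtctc
H2-DMb1: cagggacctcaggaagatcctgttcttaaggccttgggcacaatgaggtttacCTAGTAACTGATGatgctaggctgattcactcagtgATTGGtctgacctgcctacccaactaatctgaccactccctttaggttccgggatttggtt
H2-Aa: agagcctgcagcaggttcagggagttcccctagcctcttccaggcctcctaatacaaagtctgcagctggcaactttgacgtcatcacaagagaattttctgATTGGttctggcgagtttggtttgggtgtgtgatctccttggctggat
The X box began 94 bases before the start in H2-Eb1 and 97 bases before it in H2-DMb1. The nearest Y box core downstream began at 59 and 61 bases, and in H2-Aa the Y box core began at 48 bases.

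Dendritic cells made up 3.02% of kept cells at 2 h (interval 2.56% to 3.54%) and 1.15% at 9 h (0.933% to 1.41%). Of the kept cells 1453 met the neutrophil rule at 2 h and 4035 at 9 h. Over the kept cells outside the neutrophil rule the dendritic share was 4.29% at 2 h (3.64% to 5.02%) and 2.29% at 9 h (1.85% to 2.79%). The share was thus lower at 9 h on both denominators. How many cells of each kind survived dissociation and freezing was not measured, so shares are not numbers of cells in the muscle.

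The make-up of the dendritic cells by marker also differed between the libraries. Ccr7 was found in 14 of 148 dendritic cells at 2 h (9.46%, interval 5.27% to 15.4%) and in 63 of 94 at 9 h (67.0%, 56.6% to 76.4%). Cd209a went the other way, with 98 cells (66.2%) at 2 h and 29 cells (30.9%, 21.7% to 41.2%) at 9 h. Xcr1 or Clec9a was found in 33 cells (22.3%, 15.9% to 29.9%) at 2 h and in 14 cells (14.9%, 8.39% to 23.7%) at 9 h. None of these markers was found in 18 and 7 cells, which entered on Flt3 or Zbtb46. These genes belong to the rule, so the shares describe what the rule collected.

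The shares were also taken at equal depth, again as a description of cells that these genes chose. After each cell was thinned to 2000 UMIs, which left out 3 dendritic cells at 2 h and 2 at 9 h, Ccr7 was found in 6.21% (2.88% to 11.5%) at 2 h and 56.5% (45.8% to 66.8%) at 9 h. Cd209a was then found in 57.9% (49.5% to 66.1%) and 19.6% (12.03% to 29.1%). Xcr1 or Clec9a was found in 7.59% (3.85% to 13.2%) and 4.35% (1.20% to 10.8%). In neutrophils, which should lack these genes, thinning left out 727 of 1453 cells at 2 h and 2874 of 4035 at 9 h. Over the 726 and 1161 neutrophils that remained, the share with Ccr7 was 0.138% at 2 h and 0.0861% at 9 h. The share with Cd209a was 0.551% and 0.172%. Unthinned neutrophils had medians of 1999 UMIs at 2 h and 1654 UMIs at 9 h, below the 9131.5 and 7389 UMIs of dendritic cells. Macrophages chosen by C1q had Cd209a in 12.7% at 2 h and 9.35% at 9 h after thinning and had Ccr7 in 0% at both times, so Cd209a alone did not set dendritic cells apart from them.

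**Figure D1:**
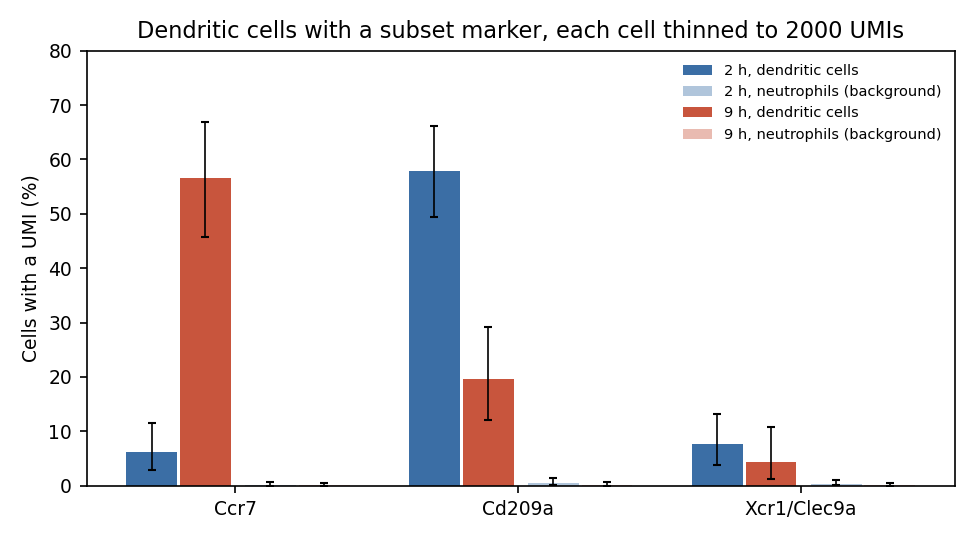
Percent of cells with at least 1 UMI of Ccr7, Cd209a, or Xcr1 or Clec9a after thinning each cell to 2000 UMIs, in dendritic cells (solid bars) and neutrophils (pale bars) at 2 h (blue) and 9 h (red); bars carry 95% exact binomial intervals. Ccr7 stands at 6.21% of dendritic cells at 2 h and 56.5% at 9 h, Cd209a at 57.9% and 19.6%, and the neutrophil bars lie under 1%.

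The markers overlapped within cells. At 2 h 9 of the 14 Ccr7 cells also had Cd209a and 1 had Xcr1 or Clec9a, and at 9 h 16 of the 63 Ccr7 cells also had Cd209a and 3 had Xcr1 or Clec9a. Ccr7 without either of the others marked 5 cells at 2 h and 44 at 9 h. Cd209a met Xcr1 or Clec9a in 6 cells at 2 h and in 0 cells at 9 h, which allows a share of up to 3.85% by the exact interval. The Ccr7 cells of the libraries also differed in the amount of Ccr7 itself: the median was 3 UMIs at 2 h and 18 UMIs at 9 h, and 5 cells in each library had exactly 1 UMI. Dendritic cells held 33.6% of all Ccr7 UMIs in kept cells at 2 h and 89.2% at 9 h.

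Maturation genes formed the clearest difference between the libraries. Levels are given as CPM over the summed UMIs of the dendritic cells, and ratios on the log2 scale carry a pseudocount of 10 CPM, which understates the ratios of low genes. The 4542 genes whose UMIs in both libraries together reached 50 were taken as measured. Of them 224 (4.93%) were past 2-fold higher at 9 h and 266 (5.86%) past 2-fold lower, with a median log2 ratio of -0.02. In the mature list, with Ccr7 itself left out as a rule gene, 14 of 15 members were measured, and all 14 were higher at 9 h, 12 of them past 2-fold. Apol7c had no UMI in the dendritic cells. The median log2 ratio of the 14 was 2.41, and their summed level was 1004 CPM at 2 h and 9559 CPM at 9 h. The list was written with earlier results of these data known and shares members with the maturation program that Ccr7 marks, so its direction is a description of these libraries. Members with few 2 h UMIs, such as Cacnb3 (7 and 101 UMIs) and Il4i1 (13 and 182), were measured only through their 9 h UMIs. For such genes the direction followed from the filter.

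Ccl17 and Ccl22 encode the ligands of CCR4, a receptor on regulatory and helper T cells, and had the 2 highest levels of the list at 9 h. Ccl17 (chromosome 8, 94810453 to 94812036 on mm10, plus strand) stood at 63.7 CPM at 2 h (51.3 to 78.1) and 3994 CPM at 9 h (3850 to 4142). The ratio was 62.7 (51.0 to 78.1), and 13.5% and 77.7% of the dendritic cells had a UMI. Ccl22, on the same chromosome at 94745590 to 94751699, stood at 75.4 CPM (61.9 to 91.0) and 2504 CPM (2390 to 2621), a ratio of 33.2 (27.3 to 40.6). Both genes were concentrated in dendritic cells: these few cells held 70.7% of the Ccl17 UMIs and 82.5% of the Ccl22 UMIs of all kept cells at 9 h. At 2 h 1 cell held 43.1% of the Ccl22 UMIs.

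The other measured members of the mature list were also higher at 9 h. Il4i1, a secreted amino acid oxidase that restrains T cells, had 13 UMIs at 2 h and 182 UMIs at 9 h (log2 ratio 3.77). Socs2, an inhibitor of cytokine signalling, stood at 10.4 and 260 CPM (3.73). Cacnb3, a calcium channel subunit used as a marker of mature dendritic cells, stood at 4.85 and 139 CPM (3.32), with 85.7% of its 2 h UMIs in 1 cell. Marcksl1, a regulator of the actin cortex, stood at 102 and 716 CPM (2.69). Fscn1, the actin-bundling protein fascin, stood at 2.08 and 83.8 CPM (2.96), but 52.5% of its 9 h UMIs lay in 1 cell and 8.51% of the cells had it. The smallest ratio of the list belonged to Nfkb2, at 83.1 and 121 CPM (0.49).

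Among Ccr7 cells the mature genes were higher at 9 h than at 2 h. Summed over the mature list without Ccr7, the 14 Ccr7 cells of 2 h ranged from 309 to 11546 CPM with a median of 1517, and the 63 Ccr7 cells of 9 h ranged from 326 to 45893 CPM with a median of 12826. Of the 14 cells 1 held 1013 neutrophil marker UMIs, 96.8% of theirs, and 1 held 27 T or NK cell marker UMIs, all of theirs. Without cells in which neutrophil, progenitor or T and NK cell markers passed 2% of UMIs, an alternative chosen after seeing the data, 13 cells had a median of 1518 CPM at 2 h, and the cell with T or NK cell UMIs was under that limit. Cd209a cells without Ccr7 had a median of 884 CPM at 2 h and 1313 CPM at 9 h, and cells with Xcr1 or Clec9a alone had medians of 356 and 1368 CPM. The lower quartile of the 9 h Ccr7 cells was 7829 CPM. At 2 h 1 dendritic cell reached it and at 9 h 50 did, 47 of them with Ccr7. The 1 cell at 2 h had 31 Ccr7 UMIs and 47 Ccl22 UMIs, 11 of the list's members, and all 8 of the Il12b UMIs found in the 2 h dendritic cells (Il12b encodes a subunit of interleukin 12). The next highest cell at 2 h stood at 6033 CPM. Within 20% of that quartile lay 0 cells at 2 h and 9 at 9 h.

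**Figure D2:**
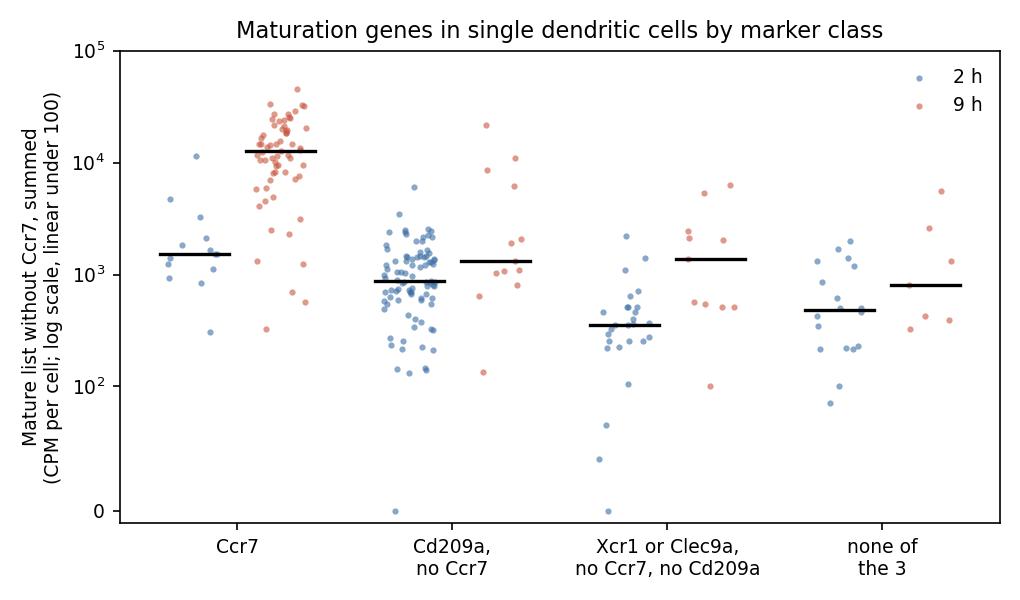
Summed level of the mature list without Ccr7 in each dendritic cell (CPM per cell, log axis that is linear under 100) by marker class, at 2 h (blue) and 9 h (red); each point is 1 cell and black bars are medians. The 9 h Ccr7 cells have a median of 12826 CPM and the 14 Ccr7 cells of 2 h a median of 1517 CPM, and the other classes have medians from 356 to 1368 CPM.

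Among cells without Ccr7 most of the mature list did not differ in 1 direction. Over the same 14 members, 6 were higher and 8 lower at 9 h in cells without a Ccr7 UMI, with a median log2 ratio of -0.09. Of these members 3 were past 2-fold higher and 1 past 2-fold lower. The summed level of the 14 was still higher at 9 h, at 2960 CPM against 863 CPM at 2 h. Some of the lower members had few UMIs, such as Cacnb3 (0.75 CPM at 2 h and 0 CPM at 9 h) and Il4i1 (4.50 and 0 CPM). Ccl17 stood at 68.3 CPM at 2 h and 2059 CPM at 9 h in cells without Ccr7, and 16 of the 31 such cells (51.6%) had it at 9 h. Ccl22 stood at 45.8 and 176 CPM there, and 5 of the 31 cells (16.1%) had it. In Ccr7 cells Ccl17 was found in 1 of 14 at 2 h (7.14%) and in 57 of 63 at 9 h (90.5%). Il4i1 and Cacnb3 were found in 41 and 30 of the 63 Ccr7 cells at 9 h and in 0 of the 31 cells without Ccr7.

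Genes of the NF-kB pathway were higher at 9 h in 13 of 14 members, 7 of them past 2-fold, with a median log2 ratio of 1.05. This list shares Nfkb2, Relb and Traf1 with the mature list. The inhibitor Nfkbia stood at 1372 CPM at 2 h and 3602 CPM at 9 h (ratio 2.63, interval 2.48 to 2.79), and the subunit Nfkb1 at 356 and 949 CPM, a ratio of 2.66 (2.37 to 2.99). Relb, the subunit most tied to dendritic cell maturation, stood at 51.9 and 128 CPM. The survival genes Bcl2a1b (102 and 1494 CPM) and Bcl2a1d (122 and 643 CPM) are near-identical copies, so counts could be split between them and are uncertain for each. Birc3, an inhibitor of apoptosis, was the member that was lower at 9 h, at 206 and 125 CPM. In cells without Ccr7 the list was even, with 7 members higher and 7 lower and a median of -0.02.

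Promoters of 11 of the 14 NF-kB list genes were in the table, and 4 of these genes (Nfkb2, Nfkbia, Rel and Tnfaip3) held the NF-kB letters (GGG, any 3 bases, then TTCC) on either strand, which occurred in 5.56% of all promoter windows. These 11 genes had 14 windows, of which 7 matched, 3 of them windows of Nfkb2. The mature list had 13 genes there, and Nfkb2 was the 1 that held the letters. Of 15 genes named as higher at 9 h or in Ccr7 cells 11 were in the table, and Il2ra and Tnfrsf9 held the letters. Those of Nfkb2 and Tnfrsf9 are shown because both genes were counted in the results here and their matches lay close to a start. Each stretch covers the 210 bases before a start on the plus strand: chr19:46304527-46304736 for Nfkb2, 1 of 3 windows of that gene with a match, and chr4:150927789-150927998 for Tnfrsf9, where the start lies within the gene's GENCODE span (150914562 to 150946102).
Nfkb2: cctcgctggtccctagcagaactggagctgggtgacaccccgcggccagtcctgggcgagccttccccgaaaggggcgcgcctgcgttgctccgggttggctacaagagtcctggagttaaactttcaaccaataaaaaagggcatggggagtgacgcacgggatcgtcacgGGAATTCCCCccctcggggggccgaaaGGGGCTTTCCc
Tnfrsf9: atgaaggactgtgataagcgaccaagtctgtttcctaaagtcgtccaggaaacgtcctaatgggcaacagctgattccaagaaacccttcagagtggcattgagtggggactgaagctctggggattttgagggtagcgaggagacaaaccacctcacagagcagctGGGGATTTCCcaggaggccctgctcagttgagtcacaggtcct
The matches of Nfkb2 began 38 and 11 bases before the start and that of Tnfrsf9 began 43 bases before it. Binding was not measured.

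Costimulatory and inhibitory surface molecules were higher at 9 h in 8 of 10 measured members, 5 of them past 2-fold, with a median log2 ratio of 0.90. Cd40, through which helper T cells license dendritic cells, stood at 36.0 CPM at 2 h and 183 CPM at 9 h, a ratio of 5.08 (3.66 to 7.13). Cd274, which encodes the inhibitory ligand PD-L1, stood at 70.6 and 282 CPM, a ratio of 3.99 (3.13 to 5.11). Pdcd1lg2, which encodes PD-L2, stood at 3.46 and 78.3 CPM and was found in 3.38% and 28.7% of cells. Cd80 stood at 91.4 and 224 CPM and Cd86 at 202 and 312 CPM, both ligands of CD28. Icosl and Havcr2 were the lower members, at 90.0 and 82.4 CPM and at 129 and 87.9 CPM. In cells without Ccr7 Cd40 stood at 29.3 and 25.1 CPM and Cd274 at 52.5 and 46.6 CPM, so neither was higher at 9 h there.

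The class II list divided. Leaving out the 4 rule genes, 3 of 9 members were higher and 6 lower at 9 h, 3 of them past 2-fold, with a median log2 ratio of -0.50. H2-DMa and H2-DMb1 encode the DM molecule that exchanges peptides on class II. H2-DMa stood at 770 CPM at 2 h and 415 CPM at 9 h, a 1.86-fold lower level (1.63 to 2.11), and H2-DMb1 at 634 and 295 CPM, a 2.15-fold lower level (1.85 to 2.50). H2-Oa and H2-Ob encode the DO molecule that inhibits DM. H2-Oa stood at 50.5 and 6.87 CPM, 7.36-fold lower (3.01 to 23.3), and H2-Ob at 95.5 and 27.5 CPM, 3.48-fold lower (2.17 to 5.87). Ifi30, a thiol reductase of endosomes, and Ciita, the class II coactivator, were higher, at 750 and 1357 CPM and at 37.4 and 82.4 CPM. The rule genes, given as a description, stood at 10371 and 8333 CPM for H2-Aa and at 25958 and 22256 CPM for Cd74.

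The DM genes were lower in cells with Ccr7 than in cells without it at 9 h. H2-DMa stood at 171 CPM in Ccr7 cells and 807 CPM in cells without Ccr7, where it had been 794 CPM at 2 h. H2-DMb1 stood at 91.2 CPM in the 9 h Ccr7 cells and at 624 CPM in the others, which had been at 664 CPM. The 14 Ccr7 cells of 2 h were between these, with 484 CPM of H2-DMa and 278 CPM of H2-DMb1. Of the DO genes, H2-Oa had 5 UMIs in all at 9 h, which gave 2.23 CPM with Ccr7 and 14.3 CPM without it, and H2-Ob stood at 22.3 and 35.9 CPM. At 2 h H2-Oa stood at 89.7 and 47.3 CPM and H2-Ob at 71.7 and 97.5 CPM. March1, which encodes a ligase that removes class II from the surface, stood at 15.6 CPM in the 9 h Ccr7 cells and at 158 CPM in those without Ccr7. Over all 9 members the median log2 ratio was -1.32 in Ccr7 cells and 0.02 in cells without Ccr7.

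**Figure D3:**
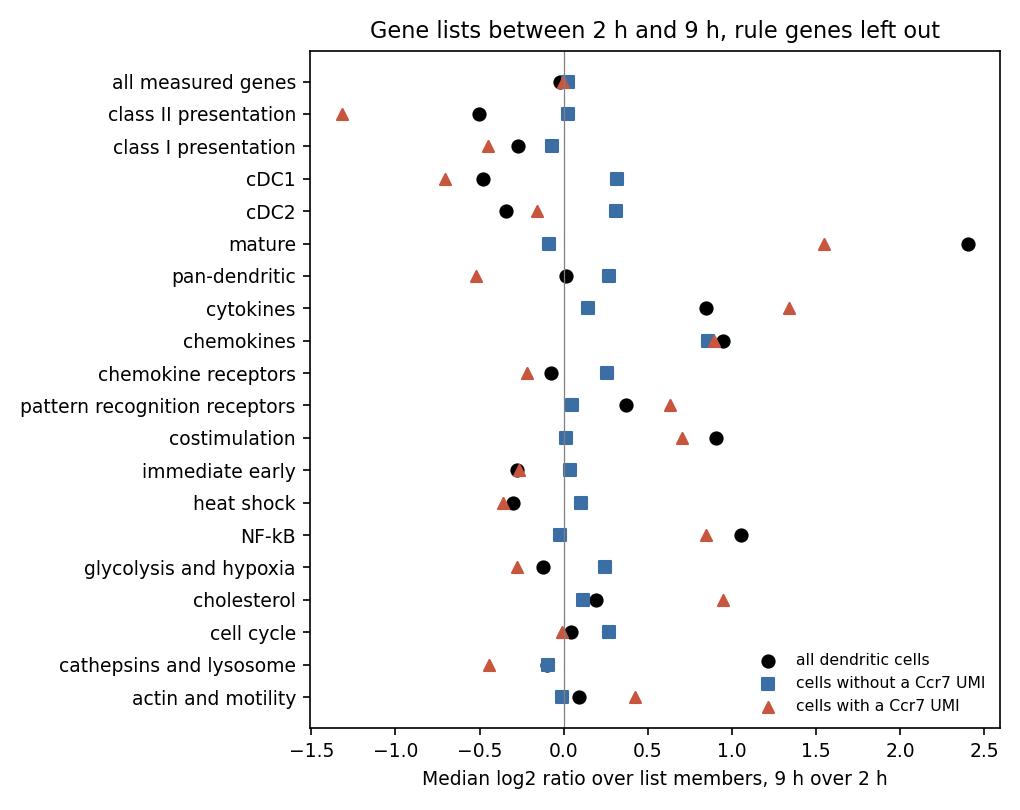
Median log2 ratio of 9 h over 2 h for the members of each gene list (rows), rule genes left out, over all dendritic cells (black circles), cells without a Ccr7 UMI (blue squares) and cells with one (red triangles), each over the members measured in all dendritic cells. The mature list stands at 2.41 over all cells and at -0.09 without Ccr7 cells, and the NF-kB list at 1.05 and -0.02.

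Cytokine and chemokine lists moved in both directions. Of 10 measured cytokines 6 were higher at 9 h, 5 past 2-fold, with a median log2 ratio of 0.85. Il1b stood at 853 CPM at 2 h and 2111 CPM at 9 h, and the other kept cells were higher at both times, at 1287 and 2732 CPM. Of 15 chemokines 9 were higher, 7 past 2-fold, and 4 were past 2-fold lower, with a median of 0.95. Cxcl16, a membrane-bound chemokine, stood at 163 and 577 CPM, a ratio of 3.55 (3.02 to 4.18), against 30.7 and 18.9 CPM in the other kept cells. Cxcl2, a neutrophil attractant, stood at 1222 and 3504 CPM in dendritic cells and at 4155 and 17699 CPM in the others. The part of other cells' RNA in the dendritic values was not tested. Ccl5 stood at 70.6 and 287 CPM, but 1 cell held 83.3% of its 2 h UMIs, and 2.03% of cells had it at 2 h against 37.2% at 9 h. Ccl6, a chemokine of myeloid cells, was lower at 9 h, at 693 and 196 CPM. Cxcl9 and Cxcl10, which interferon induces, were also lower, at 43.6 and 4.12 CPM and at 73.4 and 30.2 CPM, and 1 cell held 52.4% of the Cxcl9 UMIs at 2 h.

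Of the migration receptors besides Ccr7, Gpr183, an oxysterol receptor that positions dendritic cells in lymphoid tissue, stood at 78.2 CPM at 2 h and 232 CPM at 9 h, a ratio of 2.97 (2.32 to 3.80). Ccr2, which monocytes also carry, stood at 269 and 212 CPM. At 9 h Ccr2 was at 26.7 CPM in Ccr7 cells and 509 CPM in cells without Ccr7. The chemokine receptor list without Ccr7 had a median log2 ratio of -0.07, with 1 of 5 members past 2-fold.

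The 12 genes with the largest ratios in each direction were named by a fixed rule on level, share of cells and spread over cells. Beside Ccl17, Ccl22, Il4i1, Socs2, Cacnb3 and the Bcl2a1 copies (Bcl2a1a at 23.5 and 319 CPM), the higher genes were Fabp5, Fabp4, Tnfrsf9, Il2ra and Tspan3. Fabp5, a fatty acid binding protein, stood at 90.7 CPM at 2 h (75.8 to 108) and 3413 CPM at 9 h (3280 to 3550), a ratio of 37.6 (31.6 to 45.2). Tnfrsf9, the costimulatory receptor 4-1BB, stood at 10.4 and 220 CPM and was found in 2.03% and 37.2% of cells. Il2ra, the alpha chain of the interleukin 2 receptor, stood at 3.46 and 132 CPM, with 5 UMIs at 2 h and a ratio of 38.1 (15.8 to 120). Tspan3, a tetraspanin, stood at 53.3 and 575 CPM. Tnfrsf9 at 2 h rested on 3 cells, 1 of which held 73.3% of its UMIs.

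The 12 lower genes included several that macrophages or monocytes carry. Lyz2, lysozyme, stood at 3077 CPM at 2 h (2988 to 3169) and 810 CPM at 9 h (746 to 878), 3.80-fold lower (3.48 to 4.15). In cells without Ccr7 it stood at 3276 and 1568 CPM, and in monocytes chosen by rule at 17678 and 11708 CPM. Lyz1 (325 and 2.75 CPM) is a near-identical copy of it and is uncertain, and 1 cell held 45.8% of its 2 h UMIs. Cd163, a scavenger receptor of macrophages, stood at 128 and 8.24 CPM, Fcrls at 199 and 1.37 CPM, and Retnla, a resistin-like protein, at 698 and 113 CPM. C1q macrophages held 516 and 605 CPM of Cd163 and 3333 and 3658 CPM of Retnla, and their share in the dendritic values was not tested. Itgb7, an integrin of leukocytes (298 and 60.4 CPM), and Ccnd1, cyclin D1 (142 and 26.1 CPM), were also lower. C1q macrophages held 8.74 and 10.8 CPM of Itgb7 and 76.6 and 14.8 CPM of Ccnd1, and monocytes held 233 and 86.6 CPM of Itgb7. The others were Ramp1, Mmp19, Pltp, Sdc3 and Gpd2, with 2 h levels from 102 to 329 CPM and 9 h levels from 12.4 to 78.3 CPM.

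**Figure D4:**
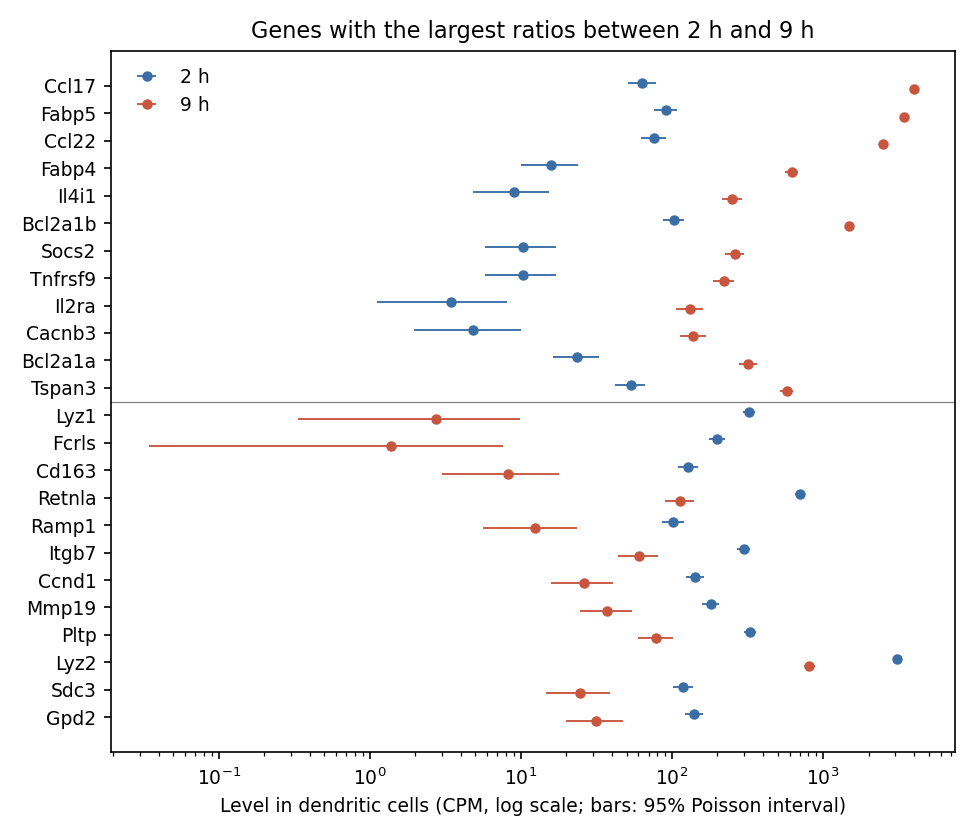
Levels (CPM, log axis) of the 24 named genes in dendritic cells at 2 h (blue) and 9 h (red), with 95% Poisson intervals from counting; genes above the grey line were higher at 9 h and genes below it lower. Ccl17 stands at 63.7 and 3994 CPM and Fabp5 at 90.7 and 3413 CPM, while Lyz2 stands at 3077 and 810 CPM.

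Within the 9 h library, 44 cells with Ccr7 and neither of the other markers were set against the 31 dendritic cells without Ccr7. Of 1556 measured genes 217 (13.9%) were past 2-fold higher in the Ccr7 cells and 192 (12.3%) past 2-fold lower. With TMM scaling, which centres the bulk of the genes, these counts were 271 and 138, and the ratios shifted by 0.22 on the log2 scale. All 12 measured members of the mature list without Ccr7 were past 2-fold higher, with a median log2 ratio of 2.97, and so were 13 of 14 members of the NF-kB list, with a median of 1.68. The 8 genes named by rule were Cacnb3, Ccl22, Ehf, Il2ra, Il4i1, Serpinb6b, Serpinb9 and Tnfrsf9. Ccl22 stood at 5526 CPM in the Ccr7 cells and 176 CPM in the others, a ratio of 31.4 (23.7 to 42.7). Il4i1 stood at 485 CPM against 0 UMIs, at least 45.0-fold higher against a floor of 3 counts over the other cells. Ehf, an epithelial ETS transcription factor, stood at 202 CPM against 0 UMIs, at least 18.8-fold higher, and Il2ra and Cacnb3 were at least 19.8-fold and 29.5-fold higher. Serpinb9, which inhibits granzyme B, stood at 286 CPM against 3.59 CPM, where 1 UMI gave a ratio of 79.7 (13.9 to 3185).

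The 44 cells were chosen to lack Cd209a, Xcr1 and Clec9a and the 31 others entered on markers other than Ccr7, so the cDC1 and cDC2 lists are given as a description of that choice. All 4 measured cDC2 members that were lower in them were past 2-fold lower, and 1 member was past 2-fold higher, with a median log2 ratio of -1.68. Of 5 measured cDC1 members 3 were past 2-fold lower and 2 were higher, 1 of them past 2-fold, with a median of -3.24 and summed levels of 1924 CPM in the Ccr7 cells and 2128 CPM in the others. Glycolysis and hypoxia genes were lower in 9 of 9 members (8 of 9 with TMM scaling), 4 past 2-fold, with a median of -0.80. The immediate early list was lower in 10 of 14 members and the heat shock list in 9 of 10 (8 of 10 with TMM scaling). The macrophage and monocyte markers moved with this contrast: the monocyte list summed to 1184 CPM in all Ccr7 cells and 4424 CPM in cells without Ccr7, and the neutrophil list to 1818 and 5561 CPM. Their part in the lower genes was not tested.

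Cells with Cd209a as the sole marker numbered 84 at 2 h and 13 at 9 h, and were set against the dendritic cells without Cd209a of the same library. At 2 h 204 of 3221 measured genes (6.33%) were past 2-fold higher and 135 (4.19%) past 2-fold lower. At 9 h 93 of 1635 (5.69%) were higher and 215 (13.1%) lower. With TMM scaling the counts were 254 and 107 at 2 h and 70 and 280 at 9 h. All 8 measured cDC2 members without Cd209a were higher at 2 h, 7 past 2-fold, with a median log2 ratio of 2.14, and all 5 were higher at 9 h (4 of 5 with TMM scaling), 3 past 2-fold, with a median of 2.38. Mgl2, a lectin of cDC2 and macrophages, stood at 758 CPM in Cd209a cells and 7.46 CPM in the others at 2 h, and at 1662 and 177 CPM at 9 h. Mrc1, the mannose receptor, stood at 357 against 1.86 CPM and at 773 against 35.02 CPM. Itgam, the CD11b integrin chain, stood at 339 against 61.5 CPM and at 544 against 96.8 CPM.

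The remaining named genes of Cd209a cells were Cfp, which encodes the complement regulator properdin, the Fc receptors Fcgr2b and Fcgr3, the lipoprotein lipase gene Lpl and the phospholipid transfer gene Pltp, all more than 3-fold higher at both times. Cfp stood at 457 against 63.4 CPM at 2 h and at 411 against 65.9 CPM at 9 h. Pltp stood at 559 CPM at 2 h and 229 CPM at 9 h in the Cd209a cells, while C1q macrophages held 888 and 421 CPM. It was thus not particular to Cd209a cells, and macrophage levels of the other named genes are not given here. Lpl lay in few cells, with 37.5% of its UMIs in 1 cell at 2 h and 45.7% at 9 h. At 2 h the NF-kB list was higher in the Cd209a cells in 14 of 14 members, 7 past 2-fold, with a median of 1.02. Of the 50 cells without Cd209a at 2 h, 27 had Xcr1 or Clec9a alone, 5 had Ccr7 alone and 18 had none of the markers. This contrast therefore shares cells with that of the Xcr1 or Clec9a cells below, and the 2 are not separate results. At 9 h, where most of the cells without Cd209a had Ccr7, it was lower in 14 of 14 members, with a median of -1.09. The chemokine list likewise stood at a median of 1.29 at 2 h and -0.96 at 9 h.

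Cells with Xcr1 or Clec9a alone numbered 27 at 2 h and 11 at 9 h. At 2 h 118 of 3317 measured genes (3.56%) were past 2-fold higher in them and 315 (9.5%) past 2-fold lower, and at 9 h 120 of 1919 (6.25%) were higher and 318 (16.6%) lower. With TMM scaling the counts were 89 and 379 at 2 h and 53 and 488 at 9 h, and the 9 h ratios shifted by -0.41 on the log2 scale. The cDC1 list without its rule genes was higher in 6 of 6 members at 2 h, 4 past 2-fold, and in 4 of 5 at 9 h, 3 past 2-fold. Irf8, the transcription factor that cDC1 need, stood at 492 CPM against 103 CPM in the others at 2 h and at 786 against 26.0 CPM at 9 h. Wdfy4, which cDC1 use to cross-present antigen from cells, stood at 390 against 103 CPM and at 326 against 29.4 CPM. Naaa, a lysosomal amidase, stood at 706 against 237 CPM and at 747 against 81.4 CPM. Psmb9, a subunit of the immunoproteasome, stood at 259 against 63.8 CPM and at 262 against 48.5 CPM.

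Inflammatory genes were lower in these cells at 2 h, and at 9 h the choice of the other cells bore on the result. The subset lacks Ccr7 by its definition, while 13 of the 115 other cells had Ccr7 at 2 h and 60 of the 80 at 9 h. The NF-kB list was lower in 14 of 14 members at 2 h, 10 past 2-fold, and in 14 of 14 at 9 h, 11 past 2-fold, with medians of -1.40 and -1.39. Chemokines were lower in 14 of 14 measured members at 2 h, 10 past 2-fold, with a median of -2.74, and in 9 of 12 at 9 h, 7 past 2-fold, with a median of -1.53. The mature list without Ccr7 was lower in 8 of 8 members at 2 h and in 13 of 13 at 9 h, all 13 past 2-fold. At 9 h members could be measured through the other cells alone, such as Cacnb3, with 91 UMIs in the cells with Ccr7 alone. For such genes the direction followed from the filter. Against cells that also lacked Ccr7, an alternative chosen after seeing the data, the NF-kB list at 2 h was lower in 14 of 14 members with a median of -1.34 (102 other cells). At 9 h it was lower in 9 of 14 with a median of -0.27 (20 other cells). The chemokine medians were then -2.34 and -0.53, and the mature list medians -0.86 and -0.23. Summed per cell, the cDC1 list had a median of 2843 CPM in cells with Xcr1 or Clec9a at 2 h and 3284 CPM at 9 h, against 805 and 797 CPM in Cd209a cells without Ccr7. The cDC2 list had medians of 261 and 382 CPM in the former and 1632 and 3709 CPM in the latter.

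**Figure D5:**
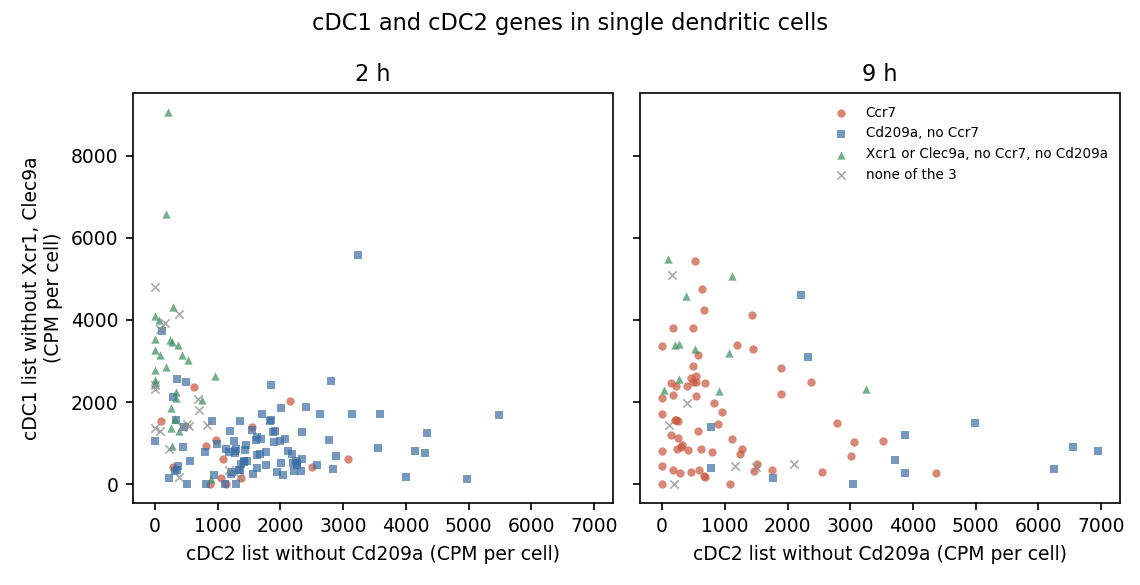
Summed cDC1 list without Xcr1 and Clec9a (vertical axis) against summed cDC2 list without Cd209a (horizontal axis), both in CPM per cell, for each dendritic cell at 2 h (left) and 9 h (right), by marker class. Cells with Xcr1 or Clec9a (green triangles) have medians of 2843 CPM for cDC1 and 261 CPM for cDC2 at 2 h, and 3284 and 382 CPM at 9 h. Cd209a cells (blue squares) have 805 CPM for cDC1 and 1632 CPM for cDC2 at 2 h, and 797 and 3709 CPM at 9 h. The Ccr7 cells of 9 h (red circles) have medians of 1490 CPM for cDC1 and 570 CPM for cDC2. The cDC1 sum includes Id2, whose level is given below.

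The subset lists were closer between times than the mature list. The cDC1 list without rule genes had a median log2 ratio of -0.48 between 9 h and 2 h over all dendritic cells and 0.32 over those without Ccr7. The cDC2 list had -0.34 and 0.31. Irf8 stood at 210 and 172 CPM, a ratio of 0.816 (0.657 to 1.01), so its interval took in no difference. Mgl2 stood at 444 and 446 CPM. Clec10a and Sirpa, both surface receptors of cDC2, were higher at 9 h, at 112 and 257 CPM and at 56.1 and 144 CPM. Id2, a transcription factor that dendritic cells need, stood at 679 and 1202 CPM, and Batf3, which cDC1 need, at 63.7 and 114 CPM. Both belong to the cDC1 list, which without rule genes summed to 1567 CPM at 2 h and 1857 CPM at 9 h. Id2 was thus a large part of that sum. Bcl11a stood at 49.8 and 16.5 CPM.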

How the data were processed

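The deposited files hold counts (UMIs per gene and barcode) from the authors; the submitters' processing notes list Cell Ranger 5.0.0 and the mm10 build. No source used here gives the annotation release, counting settings, animal numbers or batches. Files held 5729 barcodes with 28635763 UMIs at 2 h and 8790 with 36042307 at 9 h. Cells with under 200 genes, under 500 UMIs or over 20% mitochondrial UMIs were removed (829 and 643 cells). No doublet caller was used, and cells that also held neutrophil, progenitor or T cell markers were left out as an alternative. The members, the gene lists and the markers were chosen with earlier results of these data known. UMIs were summed over the dendritic cells of a library and scaled to CPM by total UMIs. Levels carry exact Poisson intervals, shares exact Clopper-Pearson intervals and ratios exact conditional binomial intervals, which take UMIs as independent and understate the error of genes concentrated in a few cells. Past 2-fold means a log2((CPM + 10)/(CPM + 10)) of at least 1 in size, with no p-value.

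Named genes between times had at least 100 CPM in 1 library, a level no lower than that of the other kept cells, a UMI in at least 10% of cells and at most 50% of UMIs in 1 cell, without mitochondrial, ribosomal, haemoglobin and unnamed genes; the 12 largest ratios each way were taken. Named subset genes had at least 200 CPM and a UMI in at least 20% of the subset's cells, 8 per subset, ranked over the libraries with at least 10 such cells. Some genes that these rules or lists name are not reported here. Promoters came from RefSeq (GRCm38.p6) and positions from GENCODE M21. Interval scripts were tested on simulated counts. Tools were Python 3.11.15, numpy 2.4.6, scipy 1.17.1, pandas 2.3.3 and matplotlib 3.10.9, and edgeR 4.0.16 in R 4.3.3 for TMM scaling alone. Alternatives covered scaling, pseudocount, filter, thinning depth, rule limits and marker subsets.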

Additional observations from a re-analysis of the deposited data

How the results depend on the processing

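No paired analysis was possible because each time has 1 library, so leaving out a replicate was not possible either. Of the list medians 232 values stayed within the spread allowed, 9 moved and 2 reversed, and of the gene ratios 1051 stayed close, 349 moved and 16 reversed. A reversal was counted only where the main log2 ratio was at least 1 in size. Smaller values that changed sign were counted as close or moved. The dendritic share was 2.55% at 2 h with at least 2 marker UMIs and 4.29% over cells outside the neutrophil rule. At 9 h it was 1.76% with each cell thinned to 2000 UMIs and 2.29% over cells outside the neutrophil rule. The thinned share used lower limits on class II and C1q UMIs and counted only cells with at least 2000 UMIs. That left 2874 of 4035 neutrophils out of its denominator at 9 h, so it is not a change of depth alone. Unthinned shares were 67.0% for Ccr7 at 9 h, 66.2% and 30.9% for Cd209a and 22.3% and 14.9% for Xcr1 or Clec9a. Cd209a at 2 h was 48.3% at 1000 UMIs, and Xcr1 or Clec9a at 2 h was 14.2% with 2 unthinned UMIs. Genes past 2-fold higher at 9 h numbered 102 with a pseudocount of 50 CPM, 337 with no filter, 129 without Ccr7 cells and 130 among Cd209a cells, and lower genes numbered 78 with that pseudocount and 120 among Ccr7 cells.

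Without Ccr7 cells the median log2 ratio reversed to -0.087 for the mature list and -0.024 for the NF-kB list, and was -0.028 for the immediate early list and 0.25 for glycolysis and hypoxia. The last was 0.10 without the cells of greatest depth and those with T or NK cell UMIs. Among Ccr7 cells class I presentation was at -0.52. Among Cd209a cells the cDC1 list was at -1.13, the pan-dendritic list at 0.56 and the interferon list at -1.95. The plasmacytoid list was at -0.50 with a pseudocount of 50 CPM and -0.49 with no C1q UMI. Genes that reversed without Ccr7 cells were Il4i1 (-0.54), Il2ra (-0.20), Cacnb3 (-0.10), Fscn1 (-0.10), Relb (-0.60), Samsn1 (-0.074), Tmem123 (-1.14), Cd40 (-0.16), Cd274 (-0.14), Il1a (-0.70) and Isg15 (-0.050). Among Ccr7 cells Retnla (3.73), Ccl5 (-1.0015), Cxcl10 (2.45) and Clec10a (-0.060) reversed, and among Cd209a cells Il10 (-0.29) did. These settings keep fewer cells, and the cause was not tested.

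Subset counts are given as higher and lower. With no filter they were 749 and 1562 for Ccr7 at 9 h, 405 and 425 for Cd209a at 2 h, 734 and 1543 for Cd209a at 9 h, 414 and 637 for Xcr1 or Clec9a at 2 h and 1429 and 1051 at 9 h, where genes with few UMIs enter. With a pseudocount of 50 CPM, 125 were lower for Ccr7, 112 and 60 passed for Cd209a at 2 h, 53 and 157 for Xcr1 or Clec9a at 2 h, and 78 were higher at 9 h. With any cell that had Cd209a at 9 h the counts were 39 and 77. TMM scaling gave 53 and 488 for Xcr1 or Clec9a at 9 h. Thinning to 2000 UMIs lowered the share of cells with Flt3 from 43.2% to 14.5%, with Zbtb46 from 18.9% to 6.21% and with Clec9a from 18.9% to 2.76% at 2 h, so depth limits shares of cells with low genes.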

Other observations

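Fabp4 was among the named genes that were higher at 9 h and is best known from fat and endothelial cells. It stood at 15.9 CPM at 2 h (10.1 to 23.9) and 619 CPM at 9 h (564 to 679) in dendritic cells, against 451 and 562 CPM over the other kept cells. At 9 h 34 of the 63 Ccr7 cells (54.0%) and 5 of the 31 cells without Ccr7 (16.1%) had a UMI of it, and neutrophils of the same library stood at 85.9 CPM. Of the other endothelial markers Flt1 and Cldn5 were at 0 in the dendritic cells of 9 h, Pecam1 and Kdr had 1 UMI each, and Cdh5 was 0 by the rule. The part of endothelial RNA in the Fabp4 values was not tested. Fabp5 showed the same division by Ccr7, with 52 of 63 cells (82.5%) and 8 of 31 cells (25.8%).

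Cell cycle genes were higher in cells with Xcr1 or Clec9a and differed little between the libraries over all dendritic cells. Between the libraries the list had a median log2 ratio of 0.04 with 0 of 7 members past 2-fold. In cells with Xcr1 or Clec9a alone it was higher in 6 of 6 measured members at 2 h (5 of 6 with TMM scaling), 5 past 2-fold, and in 4 of 4 at 9 h, 3 past 2-fold, with medians of 1.84 and 1.84. Hmgb2, a chromatin protein of dividing cells, stood at 828 CPM against 171 CPM at 2 h and at 1056 against 154 CPM at 9 h, with 35.1% and 37.6% of its UMIs in 1 cell. Tubb5, a tubulin, stood at 936 against 276 CPM and at 572 against 189 CPM, with 19.8% and 30.6% of its UMIs in 1 cell. The cells with Xcr1 or Clec9a alone, 27 at 2 h and 11 at 9 h, were also deeper than the others. Their median was 10741 against 8821 UMIs at 2 h and 9728 against 7153 UMIs at 9 h. The part of depth and of single cells in these values was not tested.

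Among the dendritic cells of 2 h 1 cell held markers of plasmacytoid dendritic cells, the type known for making interferon. Its 8575 UMIs included 23 of Siglech, 32 of Ly6d, 13 of Ccr9 and 13 of Cox6a2, and it held 7 of the list's 8 members. Over all dendritic cells of 9 h Siglech and Ly6d had 0 UMIs. Of 3 list members measured between times 3 were lower at 9 h, led by Bst2 at 153 and 41.2 CPM.

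Genes of cholesterol synthesis were few but 3 of 10 were past 2-fold higher at 9 h and none past 2-fold lower: Idi1 at 37.4 and 181 CPM, Sqle at 13.8 and 53.6 CPM and Hmgcs1 at 56.8 and 137 CPM. The other kept cells held 69.6 and 13.8 CPM of Idi1. These 3 were named after their values were seen.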
